A study of Caenorhabditis elegans with 4 samples.

Results

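The regions described here are the peaks of a control immunoglobulin on chromosome V of the nematode Caenorhabditis elegans. They are all rows that name chromosome V in the 3 deposited peak lists, 318 of 1773 peaks in all. The replicate 1 list held 30 of its 153 peaks on V, the replicate 2 list 142 of 789, and the combined list of the series 146 of 831. The libraries were made by chromatin immunoprecipitation and sequencing (ChIP-seq) from mixed-stage embryos of N2, the wild-type laboratory strain, from a population of males and hermaphrodites kept at 20 degrees. The series holds 2 IgG ChIP libraries and 2 input DNA libraries. Embryos of all 4 samples were fixed in 2% formaldehyde for 30 minutes and the chromatin was sonicated. Each precipitation used 2 mg of extract, and 10% was kept as input. The antibody is a purified polyclonal rabbit IgG, described in the labels as directed against mouse IgG, with no intended target in the worm. The input libraries are not analysed here, so no peak could be set against input.

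A control IgG library shows which chromatin comes down when the antibody has nothing to bind, and specific ChIP is judged against it. Such libraries are also used to recognise places that collect reads whatever the antibody, and tandem repeats are a known case. Chromosome V is the longest worm chromosome. Like the other autosomes it has a gene-dense centre and repeat-rich arms with more recombination. It also carries the tandem array of 5S ribosomal RNA genes, whose units also hold the gene for the SL1 spliced leader, the short RNA joined to the start of many worm messenger RNAs. The RefSeq gene table used here, of assembly WBcel235, lists a block on V of 14 rrn-4 (5S rRNA) genes and 12 sls-1 (SL1) genes with 1 other gene among them. The peak files use build WS220, so no gene was placed on any peak, and no sequence is shown because no WS220 genome was used here.

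Each peak has a position, a width and a score from the authors' peak caller. Scores have no named scale, so they are given only within a list. Depth per library is unknown, and there is 1 list per library. Whether the replicates are separate cultures is not stated in the labels, which also tie no library to a sequencer or site. Intervals in parentheses are exact Clopper-Pearson 95% intervals of a share. They treat peaks as independent, although neighbouring peaks cluster, and cover counting error only. No difference between V and the other chromosomes was tested, because peaks of one library are not replicates. The background given beside each share is the same share over the other 5 nuclear chromosomes of the same list.

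The repeated-array stretch, taken as 17110000 to 17140000 on V, gave peaks in replicate 2 and the combined list and no peak in replicate 1. In replicate 2 it held 5 peaks that together covered 13695 bp, 45.6% of the stretch and 10.3% of all V sequence under replicate 2 peaks. Both large peaks of the array had the score 3100. One ran from 17120473 to 17127233 (6761 bp), the widest replicate 2 peak on V, and the other from 17127815 to 17132156 (4342 bp). The value 3100 is shared by 7 replicate 2 peaks in all, and only 1 replicate 2 peak scored higher. Peaks of equal score have no order among themselves. Since 1 peak scored higher, 3100 was not an upper limit of the list, and why 7 peaks share it was not tested. The other 3 array peaks lay to the left of these. They ran from 17115361 to 17116172 with a score of 464.72, from 17117732 to 17118984 with 748.1, and from 17119904 to 17120430 with 275.05.

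The combined list had 9 peaks in the stretch, covering 8640 bp or 28.8% of it. All of this sequence lay inside 4 of the 5 replicate 2 peaks and made up 63.1% of the array sequence under replicate 2 peaks. The highest combined score in the array was 10.33, for a peak of 197 bp at 17117922 to 17118118, and only 4 combined peaks on V scored higher. The widest was a peak of 2248 bp at 17129675 to 17131922 with a score of 5.86. A row of 3 peaks at 17120594, 17122394 and 17124212 had widths of 1475, 1635 and 1636 bp and scores of 5.38, 5.45 and 5.74. Their starts were 1800 and 1818 bp apart. Elsewhere in the array the starts of neighbouring combined peaks were 509 to 2672 bp apart, so the spacing was not even. The 9 combined peaks of the array had a median score of 5.45, and 8 of them scored between 3.85 and 7.2. All combined peaks on V had a median of 4.33 and an upper quartile of 5.86. The array peaks were thus above the V median as a group, while replicate 2 put the 2 large array peaks among its highest scores.

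Replicate 1 had 0 of its 30 V peaks in the array (0 to 11.6%). The array held 6.16% of combined and 3.52% of replicate 2 peaks on V, and both values lie inside that interval. The nearest replicate 1 peaks on V ended 1069 kb to the left, at 16040952, and started 168.5 kb to the right, at 17308510. Depth is unknown, so the empty stretch in replicate 1 shows no called peak and not an absence of reads. With the stretch 10 kb wider on each side the numbers stayed at 0, 5 and 9 peaks in replicate 1, replicate 2 and the combined list.

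**Figure D1:**
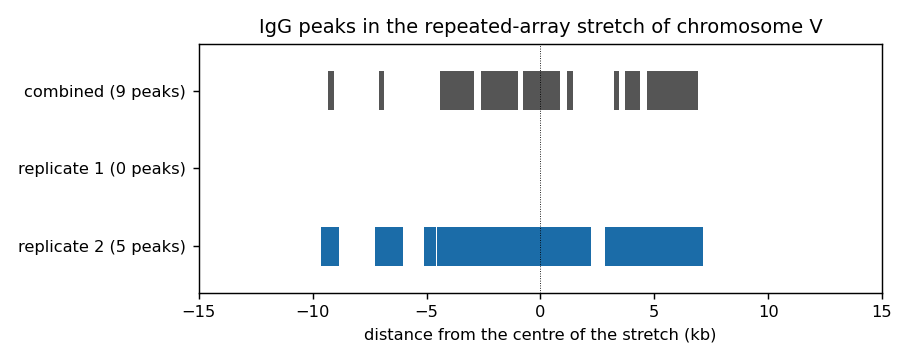
Extent of each IgG peak in the repeated-array stretch of chromosome V, by list; the horizontal axis is the distance in kb from the centre of the stretch. Replicate 2 has 5 peaks, the 9 combined peaks lie inside 4 of them, and the replicate 1 row is empty.

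Chromosome V as a whole held 17.7% of nuclear combined peaks (15.2 to 20.5%), 19.6% of replicate 1 (13.6 to 26.8%) and 18.0% of replicate 2 peaks (15.4 to 20.9%), against 20.8% of the nuclear extent. The combined interval leaves that value out, but takes it in among peaks at or above the median score (15.9 to 23.7%), with peaks merged within 1 kb (14.9 to 21.4%) and with the highest scoring peak per 10 kb (15.6 to 22.6%). Without the array peaks, V held 16.8% of combined (14.3 to 19.5%) and 17.5% of replicate 2 peaks (14.9 to 20.3%), and both intervals leave 20.8% out. This lowers V alone, because clusters elsewhere stayed in, such as runs of 31 combined peaks on X and 18 replicate 2 peaks on III. No conclusion about V is drawn from it. In replicate 1 the share was 21.0% merged within 1 kb and 23.1% per 10 kb. The extent is the highest peak end in any list, which for V is 20839801. In peaks per Mb, V had 7.01 in the combined list, and the other chromosomes had 7.71 to 9.09. In replicate 2 it had 6.81 per Mb, and the others 6.44 to 9.89. In replicate 1 it had 1.44 per Mb, and the others 0.945 to 2.17. V was thus below each of the other 5 chromosomes in the combined list and inside their range in both replicate lists. Replicate 2 held 4.73 times as many peaks on V as replicate 1, against 5.26 times on the other chromosomes.

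With V cut into 10 equal bins of 2.08 Mb, numbered from the left end, the combined list and replicate 2 had most peaks in bins 4, 5 and 9 and fewer in bins 6 and 7. The combined list had 21 peaks in each of bins 4 and 5 and 27 in bin 9, against 14.6 for an even spread. Replicate 2 had 19, 20 and 28 there, against 14.2, and 18 in bin 3. In bin 8 the numbers were near even, 16 combined and 14 replicate 2 peaks. Without the array, bin 9 still held 18 combined and 23 replicate 2 peaks. Bin 6 held 11 combined and 8 replicate 2 peaks, bin 7 held 7 and 9, and bin 10 held 7 in each. Replicate 1, with 3 peaks per bin for an even spread, ranged from 0 in bin 1 to 6 in bin 5 with 2 in bin 4 and 5 in bin 9.

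The longest part of V with no peak in any list ran from 11274591 to 12509898, 1235 kb. A further 855.2 kb without a peak followed from 12510656 to 13365843. The single interruption was a region found in both replicates. There, replicate 1 had a peak at 12509899 to 12510643 with a score of 51.81, and replicate 2 one at 12509907 to 12510655 with a score of 408.86.

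**Figure D2:**
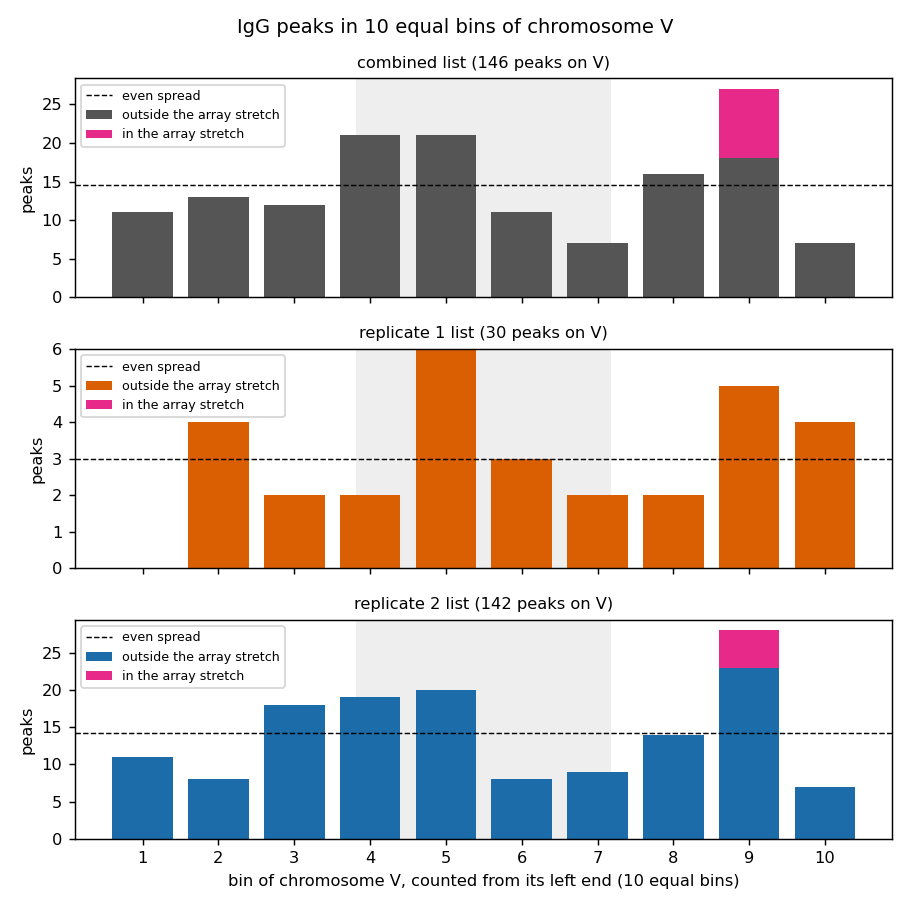
Number of IgG peaks in each of 10 equal bins of chromosome V, from its left end, for the 3 lists; pink marks peaks in the array stretch, the dashed line an even spread and the grey band the middle section of 3. Bin 9 is the highest in the combined list (27) and in replicate 2 (28), and replicate 1 has no peak in bin 1.

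With V divided into 3 equal sections, an even spread would put 33.3% of peaks in each. The left section was the emptiest in the combined list and in replicate 1. It held 38 of 146 combined peaks on V, 26.0% (19.1 to 33.9%), against a background of 40.9% (37.2 to 44.7%), with 30.2 to 50.3% on single other chromosomes. In replicate 1 the left section held 6 of 30 peaks, 20% (7.71 to 38.6%), against 35.8%. In replicate 2 it held 44 of 142, 31.0% (23.5 to 39.3%), against 41.9%, and there single other chromosomes ran from 25.9 to 56.5%. The 2 intervals, of V and of the background, were apart in the combined list and overlapped in both replicate lists. They count clustered peaks as independent, and the combined background includes a single run of 31 peaks in the left section of X. Chromosome IV, at 30.2% in the combined list, lay inside the interval of V, so a low left share was not particular to V.

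The middle section, which takes in much of the gene-dense centre, held 53 of 146 combined peaks on V, 36.3% (28.5 to 44.7%), against a background of 25.5%. In replicate 1 it held 12 of 30, 40% (22.7 to 59.4%), against 26.0%, and in replicate 2 44 of 142, 31.0% (23.5 to 39.3%), against 24.1%. V had the highest central share of the 6 chromosomes in each list, but the next chromosome was close in each. Chromosome III had 34.0% in the combined list and 30.9% in replicate 2, and chromosome IV had 38.7% in replicate 1. These values lie inside the intervals of V, so a high central share was not particular to V. All 3 intervals for V take in the even share, and the side of it on which V fell changed with the boundaries. With the middle 50% of V as the centre, the share was 52.1% in the combined list, 50% in replicate 1 and 58.5% in replicate 2. Between 6 and 16 Mb, where 48.0% is even, it was 47.3%, 46.7% and 55.6% in the same lists. The right section held 55 combined peaks on V (37.7%, background 33.6%), 12 in replicate 1 (40%, background 38.2%) and 54 in replicate 2 (38.03%, background 34.0%). Among peaks of the outer sections alone, the right one had 59.1% of combined peaks on V (48.5 to 69.2%, background 45.1%), 66.7% in replicate 1 (41.0 to 86.7%, background 51.6%) and 55.1% in replicate 2 (44.7 to 65.2%, background 44.8%). The array peaks lie in the right section, and without them these shares on V were 54.8% in the combined list and 52.7% in replicate 2. With peaks merged within 1 kb, the replicate 2 share was 49.3%. All of these intervals take in 50%.

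The ends of the chromosome differed between the lists. On the left, replicate 2 had a peak at 4 to 384 with a score of 303.13, and the combined list one at 143 to 298 with a score of 2.85. The first replicate 1 peak on V lay far inside, at 2777521. A left-end peak in replicate 2 was not particular to V. On each other nuclear chromosome that list had a peak starting at position 1, with scores of 169.66 to 731.25. On chromosome I, the combined list (115 to 269) and replicate 1 (1 to 536) had one there too. On II, III, IV and X the first peak started at 14146 or beyond in the combined list and at 189237 or beyond in replicate 1. On the right, all 3 lists ended on overlapping peaks. These were 20839438 to 20839801 in the combined list (score 4.24), 20839507 to 20839692 in replicate 1 (51.44) and 20839495 to 20839783 in replicate 2 (95.88). V was the only nuclear chromosome whose last peaks in the 3 lists overlapped one another. The replicate 1 member of this group was the lowest scoring and narrowest (186 bp) replicate 1 peak on V.

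The median combined peak on V was 229 bp wide, against 226 bp on the other chromosomes together. In replicate 1 the medians were 488.5 bp on V, against 540 bp elsewhere. In replicate 2 they were 499.5 bp on V, against 461 bp elsewhere. A few broad peaks held much of the sequence under the replicate peaks. In replicate 1, 5 of 30 V peaks were at least 2 kb wide (16.7%, background 11.4%), and they held 65.3% of the covered 36705 bp. In replicate 2, 16 of 142 were (11.3%, background 9.27%), and they held 45.1% of the covered 133063 bp. The combined list had 2 such peaks on V (1.37%, background 0.589%), at 10605755 to 10609792 and in the array.

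All 5 broad replicate 1 peaks had a replicate 2 counterpart, with nearly the same outer edges. The same was true of all broad replicate 1 peaks elsewhere as far as overlap goes (background 100%, 14 of 14). The highest replicate 1 score on V, 416.92, belonged to a 6546 bp peak at 3434574 to 3441119. Its counterpart in replicate 2 ran from 3434597 to 3441151 with a score of 1909.28, and the combined list placed 6 peaks inside it. A peak at 4333164 to 4336733 in replicate 1 (57.38) met one at 4333189 to 4336734 in replicate 2 (1468.44), with 4 combined peaks inside. It was thus low among the scores of replicate 1, whose median on V was 70.4, and high among those of replicate 2, whose median was 117.5. A peak at 17308510 to 17311706 (204.25) met 17308576 to 17311633 (1576.42), again with 4 combined peaks.

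The region at 8699250 to 8702930 had a score of 184.75 in replicate 1, and the matching replicate 2 peak at 8699275 to 8702938 had 507.82. The combined list had no peak there. In these 4 regions the starts differed by 23 to 66 bp and the ends by 1 to 73 bp, and the common part was 95.7 to 99.3% of the joint extent. The remaining broad region held the widest replicate 1 peak on V, 6961 bp at 10605593 to 10612553, with a score of 99.06. Replicate 2 divided it into a peak at 10605598 to 10610018, whose 3233.06 was the highest score of that list, and one at 10610022 to 10612556 with 847.35.

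**Figure D3:**
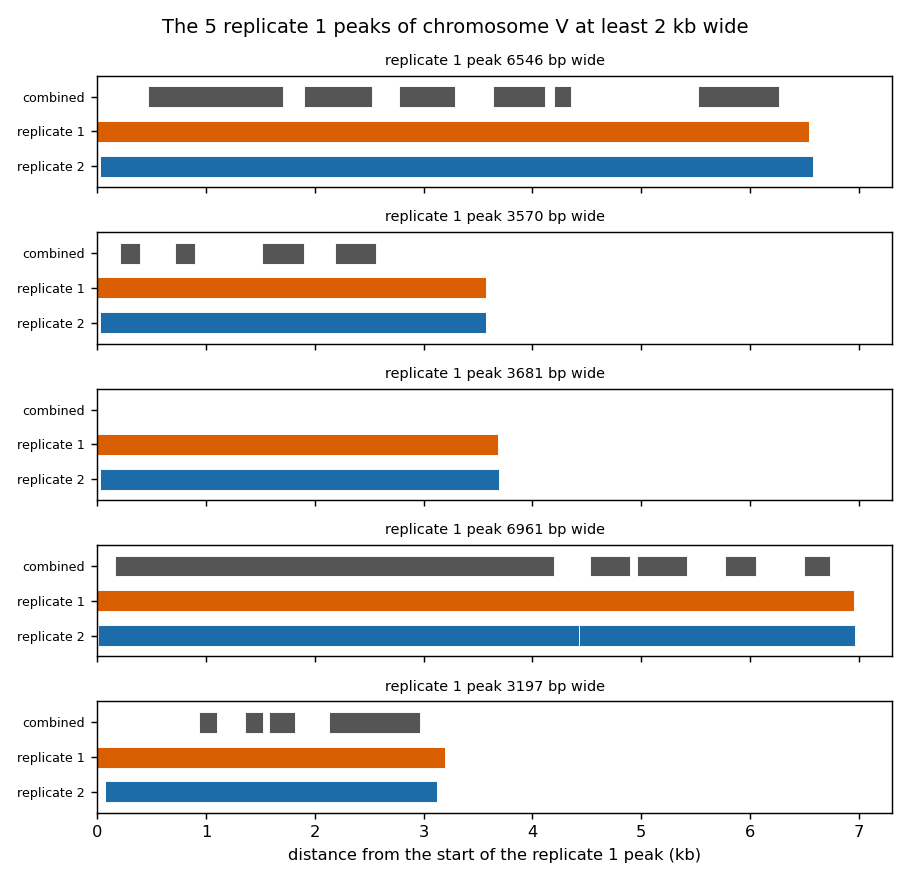
The 5 replicate 1 peaks of chromosome V that are at least 2 kb wide, with every overlapping peak of the other lists; the horizontal axis is the distance in kb from the start of the replicate 1 peak. Replicate 2 edges fall close to those of replicate 1 in all 5, the combined list breaks 4 of them into 4 to 6 peaks, and the 3681 bp region has no combined peak.

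Replicate 2 had broad peaks on V that replicate 1 lacked. Of its 16, 6 overlapped a replicate 1 peak (37.5%, 15.2 to 64.6%), against 25% (15 of 60) on the other chromosomes. These 6 include the 2 parts of the single replicate 1 peak at 10605593 to 10612553, which the share and its interval count separately. The largest without a counterpart, outside the array, ran from 7918481 to 7925048 (6568 bp) with a score of 2772.39 and held 7 combined peaks. Others lay at 5283190 to 5285899 (1741.92, 4 combined peaks), at 264970 to 267308 (1469.77, 2 combined peaks) and at 7988843 to 7991576 (766.65, 3 combined peaks). A further 4 broad replicate 2 peaks overlapped neither other list. The highest of them were at 16707177 to 16709491 (597.55) and at 5073539 to 5076811 (572.13).

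In replicate 2, wider V peaks had higher scores (Spearman's rho 0.81 over 142 peaks, and 0.77 over 647 on the other chromosomes). The relation was looser in replicate 1 (0.51 over 30 and 0.34 over 123) and in the combined list (0.37 over 146 and 0.24 over 679). The peaks of a list share one library, or a combined call, and one caller.

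**Figure D4:**
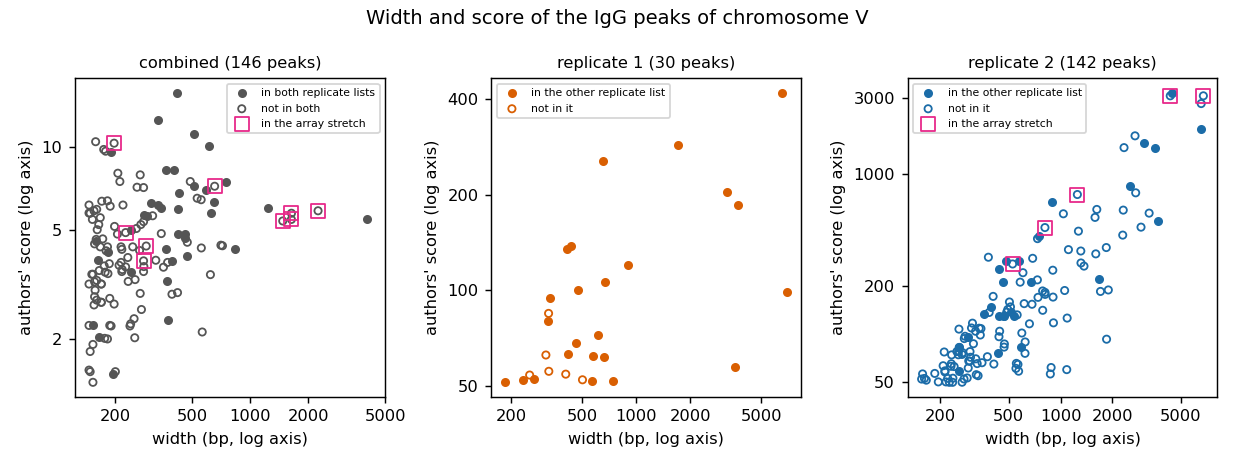
Width in bp and authors' score of every IgG peak of chromosome V, a panel per list, both axes logarithmic; filled points are peaks shared with the replicate lists as each legend says, and pink squares mark the array stretch. The array peaks of replicate 2 lie on the same band as its other peaks, with the highest scores among its widest peaks.

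Where both replicates had a peak on V, the peaks were in nearly the same place. On V, 24 of 30 peaks in replicate 1 had a peak of replicate 2 over them, 80% (61.4 to 92.3%), against a background of 73.2%. From the side of replicate 2, 25 of 142 overlapped, 17.6% (11.7 to 24.9%), against 15.3%. Both shares on V were close to the background. The 25 overlapping pairs on V had 88.1% of their joint extent in common in the median, and 23 of them (92%) had at least 50%. On the other chromosomes the median was 76.2% over 101 pairs, and 72.3% had at least 50%. Starts differed by a median of 22 bp on V and 45 bp elsewhere. Peaks of both replicates covered 33327 bp of V in common. This made up 90.8% of the V sequence under replicate 1 peaks and 25.05% of that under replicate 2 peaks, against 80.02% and 17.07% on the other chromosomes.

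Shared peaks on V had higher median scores and widths than the unshared peaks of V in their list. The same held on the other chromosomes. There the median scores were 80.9 against 70.7 in replicate 1 and 168.2 against 95.9 in replicate 2. The median widths there were 604.5 against 414 bp in replicate 1 and 659 against 424 bp in replicate 2. In replicate 1 the 24 shared peaks had a median score of 87.4 (51.44 to 416.92) and a median width of 593 bp. The 6 unshared ones had 55.1 (52.39 to 84.67) and 324.5 bp. In replicate 2 the 25 shared peaks had a median score of 212.1 (59.27 to 3233.06) and a median width of 535 bp, and the 117 unshared ones 104.4 (50.01 to 3100) and 487 bp. All 8 replicate 1 peaks on V at or above the upper score quartile of their list were shared, against a background of 80.6% (25 of 31). At or below the lower quartile it was 6 of 10, against 62.1%. In replicate 2 these shares were 14 of 44 (31.8%, background 28.6%) and 1 of 36 (2.78%, background 10.5%). These values are descriptions, and the ranges of shared and unshared peaks overlap in both lists.

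Sharing was also counted by section. In replicate 1, 5 of 6 peaks in the left section (83.3%, background 79.5%), 10 of 12 in the middle (83.3%, background 68.8%) and 9 of 12 in the right section (75%, background 70.2%) were shared. In replicate 2 the middle section had 11 of 44 shared (25%, 13.2 to 40.3%, background 14.7%), the left section 5 of 44 (11.4%, background 14.8%) and the right section 9 of 54 (16.7%, background 16.4%). In no other list were 4 of 30 replicate 1 peaks (13.3%, background 7.32%) and 78 of 142 replicate 2 peaks (54.9%, background 53.6%). The 4 replicate 1 peaks were at 18979797 to 18980120 (84.67), 18980202 to 18980514 (62.67), 16040699 to 16040952 (54.22) and 8847843 to 8848343 (52.39). The first pair of these stood 81 bp apart.

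More combined peaks overlapped replicate 2 than replicate 1. Of the 146 on V, 38 overlapped both replicate lists, 26.0% (19.1 to 33.9%), against a background of 17.7% (14.9 to 20.8%) and 9.38 to 22.6% on single other chromosomes. V thus had the highest share of the 6, with intervals that overlap the background's. This share counts pieces of broad peaks one by one, such as 6 in the replicate 1 peak at 3434574 and 5 in that at 10605593. By merged region, 10.99% on V were in all 3 lists, against a background of 8.73%. Of the 146 combined peaks, a further 59 overlapped replicate 2 alone (40.4%, 32.4 to 48.8%, background 45.1%) and 3 replicate 1 alone (2.05%, 0.426 to 5.89%, background 3.98%). The remaining 46 overlapped neither (31.5%, 24.1 to 39.7%, background 33.3%), so 68.5% overlapped at least 1 replicate list (background 66.7%). Seen from the replicate lists, 23 of 30 replicate 1 peaks on V (76.7%, background 84.6%) and 61 of 142 replicate 2 peaks (43.0%, background 44.5%) held a combined peak. At least 2 combined peaks lay in 6 of the 30 (20%, background 17.9%) and in 16 of the 142 (11.3%, background 13.0%). Combined peaks on V seen in both replicates had a median score of 5.64 and a median width of 385 bp. Those over replicate 2 alone had 4.36 and 269 bp, those over neither had 3.54 and 179.5 bp, and the 3 over replicate 1 alone had 8.03 and 178 bp. The score ranges overlapped, at 1.49 to 15.75 for both, 1.39 to 10.46 for replicate 2 alone, 1.52 to 9.8 for neither and 1.91 to 9.66 for replicate 1 alone.

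**Figure D5:**
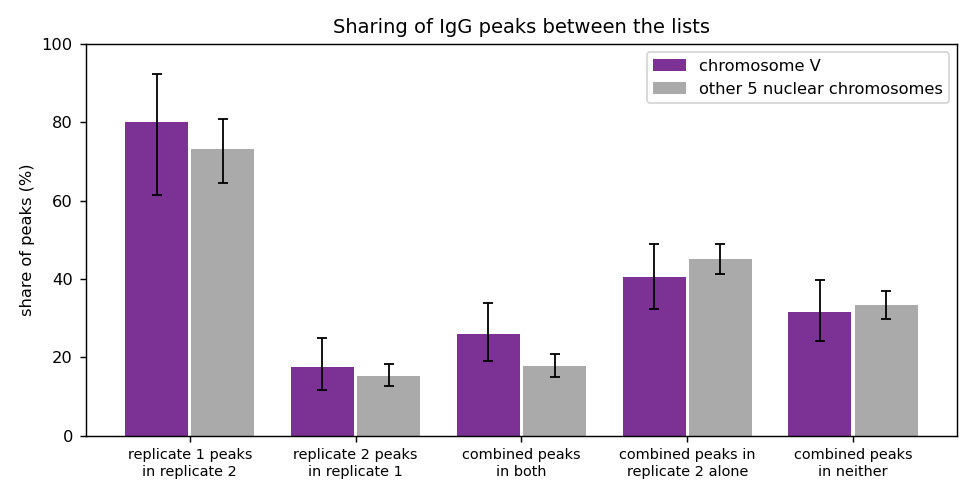
Share of IgG peaks that overlap peaks of other lists, for chromosome V (purple) and the other 5 nuclear chromosomes together (grey); bars are percentages and lines exact 95% intervals. The purple and grey intervals overlap in each of the 5 pairs, and the widest gap in the combined list is for peaks in both replicates, 26.0% on V against 17.7%.

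The highest combined score on V, 15.75, was at 2777497 to 2777913, where replicate 1 had 138.07 at 2777521 to 2777953 and replicate 2 had 257.26 at 2777553 to 2777991. All 3 peaks were 417 to 439 bp wide. Next came 17629205 to 17629535 with 12.5, over replicate peaks of 416 bp (63.19, replicate 1) and 480 bp (286.17, replicate 2). After it came 8853310 to 8853821 with 11.2, over peaks of 670 bp (106.2, replicate 1) and 674 bp (212.11, replicate 2). These 3 peaks, the highest by combined score, were 331 to 512 bp wide, above the combined median of 229 bp on V but well under 2 kb. One lay in each of the 3 sections. By replicate score the highest shared peaks on V were broad, the 6546 bp peak in replicate 1 (416.92) and the 4421 bp peak in replicate 2 (3233.06).

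Next among the combined peaks found in both replicates were 7443250 to 7443858 (10.13), 4333875 to 4334064 (9.61), and 8533259 to 8533661 and 10610122 to 10610488 (8.22 each). The first of these lay in the replicate 1 peak at 7443108 to 7444820, whose 286.48 was exceeded by 1 other on V. Replicate 2 had 221.08 at 7443090 to 7444765. After them came 3440099 (7.48) and 3437345 (7.19), both inside the broad region at 3434574. Lower still were 17737398 (6.97), 15321829 (6.78) and 11273832 (6.31). At 17737398 the replicate scores were 255.19 in replicate 1 and 288.57 in replicate 2.

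High combined scores also occurred without any replicate peak. The highest such peak on V was at 9344152 to 9344325, 174 bp wide with a score of 9.8, a score exceeded by 6 combined peaks on V. It was followed by 16552964 (7.49), 1003833 (7.14), 14124695 (6.37) and 20002364 (6.09). All 5 were between 174 and 259 bp wide. Conversely, 3 regions on V had peaks in both replicates and none in the combined list, at 8327945 to 8328411, at 8699250 to 8702938 and at 10446532 to 10447098.

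Merging overlapping peaks of the 3 lists gave 191 separate regions on V. Of these, 21 were in all 3 lists (10.99%, background 8.73%), 78 in replicate 2 only (40.8%, background 39.3%), 46 in the combined list only (24.1%, background 25.6%) and 4 in replicate 1 only (2.09%, background 1.02%). A further 37 were in replicate 2 and the combined list (19.4%, background 21.7%). Both replicates without a combined peak made up 3 (1.57%, background 1.02%), and replicate 1 with the combined list 2 (1.05%, background 2.61%). The background here is 882 such regions on the other nuclear chromosomes, and the shares on V were close to it. The 21 regions in all lists had a median width of 637 bp, the 42 in exactly 2 lists 761 bp and the 128 in a single list 258.5 bp.

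Runs, defined as 3 or more peaks of a list with gaps of at most 10 kb, held 66 of 146 combined peaks on V (45.2%, 37.0 to 53.6%, background 46.5%) and 65 of 142 replicate 2 peaks (45.8%, 37.4 to 54.3%, background 43.9%). Both shares were near the background. Replicate 1 had no run on V, 0 of 30 peaks (0 to 11.6%), against a background of 20.3% (25 of 123) and 15 to 30.8% on single other chromosomes. Since a run takes 3 peaks, the lowest share above 0 on V would be 10%. Each other chromosome had only 1 or 2 replicate 1 runs, so V differed from them by few runs. With peaks merged within 1 kb before runs were sought, a choice made after seeing the data, the shares were 16.8% of combined peaks on V (background 12.6%) and 15.9% of replicate 2 peaks (background 14.4%). The combined runs on V numbered 13 and those of replicate 2 numbered 15.

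Combined peaks in runs on V mostly overlapped a broad replicate 2 peak. Of the 66 peaks in runs, 40 overlapped a replicate 2 peak of at least 2 kb (60.6%, 47.8 to 72.4%, background 45.3%). Of the 80 combined peaks outside runs, 2 did (2.5%, background 4.13%). This contrast is partly fixed by the definition, since 3 or more combined peaks inside one broad V peak always form a run. Such peaks are also not independent, which the interval does not take into account. The largest run was the array with 9 peaks. Next was a run of 8 peaks at 7917446 to 7923700, all of them over replicate 2 peaks and none over a replicate 1 peak. A run of 6 at 3435042 to 3440843 lay in the broad region found in both replicates.

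The other 2 combined runs of 6 were more spread out, over 20.5 and 17.7 kb, against 5.80 kb for the run of 6 at 3435042. They ran from 8847280 to 8867781 and from 8880053 to 8897778. The first of them held 2 peaks over replicate 1 and 2 over replicate 2. The second held 1 over replicate 1 and 3 over replicate 2. Runs of 5 lay at 5278982 to 5285492, with all 5 peaks over replicate 2 and none over replicate 1, and at 10605755 to 10612334, with all 5 over both.

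The runs of replicate 2 were partly at other places. Its largest on V had 9 peaks in 10.5 kb at 17384105 to 17394561, with scores of 61.11 to 279.06, and 3 of these held a combined peak. A combined peak of 10.46, at 17392390 to 17392547, lay there and was exceeded by 3 others on V. A run of 8 peaks at 6072199 to 6089298, with scores of 52.5 to 298.45, had no combined and no replicate 1 peak over it. Runs of 6 at 14751332 to 14769804 and of 5 at 9428380 to 9438995 had no replicate 1 peak, and 1 and 0 of their peaks held a combined one. The array, which also has 5 peaks, had no replicate 1 peak either. Over all replicate 2 runs on V, 5 of 65 peaks overlapped a replicate 1 peak (7.69%, 2.54 to 17.0%), against a background of 15.5% (44 of 284).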

How the data were processed

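Peak lists of 2 IgG ChIP-seq libraries and 1 combined list were used. Their coordinates follow build WS220 of WormBase, per the file headers. MACS v2 made the combined list and MACS the replicate lists, per the source field in the deposited files. What was used as aligner, control, filter or threshold, and how replicates were combined, is not given in the sources. The score is the one the authors deposited, on an unnamed scale, and is used within a list only.

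Peaks sharing at least 1 bp were called overlapping. Sections are by peak midpoint and the extent of a chromosome is the highest peak end in any list. Python 3.11.15, NumPy 2.4.6, pandas 2.3.3, SciPy 1.17.1 and Matplotlib 3.10.9 were used. The interval functions were tested on 20 simulated lists with known overlaps, against bedtools 2.31.1. Named regions on V were the array peaks, the 12 highest combined peaks outside it in both replicate lists, and, per list, the 5 highest scoring, 5 widest, first and last, 5 largest runs, and the 5 highest scoring in no other list; broad peaks and peak-free parts were added after their values were seen. The regions, sections and lists were chosen with earlier results of these data known. Mitochondrial peaks were left out.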

Additional observations from a re-analysis of the deposited data

How the results depend on the processing

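Alternatives covered the score, merging, the boundaries, the overlap rule, the gap that makes a run and the array, and 64 of 77 recomputed values stayed within the exact 95% interval of the value reported above (for a median width, an order-statistic interval), or, for counts, within 1.5 times. Some of these values could not move, since replicate 1 has no array peak and leaving the array out changed none of its data. Intervals for replicate 1 rest on 30 V peaks and are wide, so the tally is no measure of robustness there. The central share of V was 52.1% in the combined list and 58.5% in replicate 2 for the middle 50% of the chromosome, against an even 50%, and 47.3% and 55.6% between 6 and 16 Mb, against 48.0%. Relative to an even spread, replicate 2 thus turned to above even from 31.0% against 33.3%, and the combined list turned to below even between 6 and 16 Mb, from 36.3%. The wider windows hold more peaks by construction, but the cause of these turns was not tested. At or above the median score of a list, the median width was 280 bp in the combined list, 661.5 bp in replicate 1 and 788 bp in replicate 2, and sharing was 92.9% for replicate 1 peaks, 25.3% for replicate 2 peaks and 34.6% for combined peaks in both. The cause was not tested. With peaks merged within 1 kb before runs were sought, a choice made after seeing the data, 16.8% of combined and 15.9% of replicate 2 peaks on V were in runs. Combined V peaks overlapping any replicate peak made up 68.5%, with a range of 28.1 to 66.4% when a replicate was left out, the lower value without replicate 2. No paired analysis was possible because the input libraries are not analysed here. The depth of each library is unknown, so a missing peak cannot be read as missing signal.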
